A study of Mus musculus with 6 samples.

Results

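Mesothelial marker genes were followed in 6 polyA RNA-seq libraries of primary stromal cells from mouse gonadal fat, of which 3 were grown on plain type I collagen (col1) and 3 on collagen that had polymerized with aortic carboxypeptidase-like protein as a recombinant (col1-ACLP). The 10 genes are Upk3b, Upk1b, Krt7, Krt8, Krt18, Krt19, Wt1, Msln, Lrrn4 and Muc16, taken by symbol from a count table of 56748 genes. The list was chosen with earlier results of these data known, so its counts and medians are descriptions and not tests. All cells carried the WT genotype and belonged to the stromal vascular fraction of white fat beside the gonads, taken from male and female C57BL/6 mice aged 12 weeks. They went straight onto hydrogels of 12 kPa coated with 0.05 mg/mL collagen, with 0 nM ACLP in the col1 group and 30 nM in the col1-ACLP group, and stayed there for 48 h. ACLP is a secreted protein that binds fibrillar collagen, and every value is given beside its col1 level. The labelled cell type is mesenchymal stem cells, but no sort is described and markers of fibroblasts, macrophages and endothelium were all detected.

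Mesothelium is the flat cell layer that lines the body cavities and covers the organs in them, gonadal fat included. It is of mesodermal origin but carries epithelial features, among them keratin filaments, a mucin coat on the free surface and tight junctions, together with the transcription factor Wt1. Mesothelial cells can lose their keratins and take on a fibroblast form, a change known from peritoneal fibrosis. In mice Wt1 is also found in progenitor cells of visceral fat, and the simple keratins Krt7, Krt8, Krt18 and Krt19 are found in many epithelia, so neither belongs to mesothelium alone.

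The keratin and uroplakin genes Krt7 and Upk3b fell on col1-ACLP, Krt8 fell by less, and Wt1, Upk1b, Lrrn4 and Krt19 did not pass the test and overlapped between the groups. Krt7 was 40.4% lower and Upk3b 47.5% lower by the fitted fold change. Both passed the study's thresholds (adjusted p under 0.05 and absolute log2 fold change above 0.58), so that 2 of 10 markers were lowered and 0 raised. Of the 17717 tested genes 1.38% were changed, 0.722% lowered and 0.66% raised. Krt8 passed the p threshold only. Of the other 7 markers, Krt18 and Msln passed an unadjusted p of 0.05, as did 14.9% of all tested genes, and did not pass adjustment. The 10 markers had a median log2 fold change of -0.40, against 0.01 over all tested genes, and 7 of them were below 0, against 48.9% of all genes. Muc16, which passed the filter on low counts through its col1 libraries alone, is part of both values, and the 9 others had a median of -0.35 with 6 below 0. Fewer mesothelial cells in a culture and less of an RNA per cell cannot be told apart in these bulk libraries.

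The libraries held 33343651 to 47142754 counts, and mitochondrial genes took 2.91 to 6.14% of them, the most in col1-ACLP 2. Levels are given in CPM (counts scaled to library size, with TMM factors), on which 3 counts, taken as the lowest detectable amount, equal 0.0624 to 0.0889. All 10 markers passed the filter on low counts. The 9 other than Muc16 were counted at least 134 times in every library, and 8 of them lay above 10 CPM throughout. The summed level of the 10 markers was 318 to 413 CPM on col1 and 307 to 350 on col1-ACLP, next to 6186 to 6454 and 4425 to 4835 CPM for 11 fibroblast and progenitor markers. Of these, Ly6a, Cd34 and Pi16 fell, and Dcn fell past the p threshold only.

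**Figure D1:**
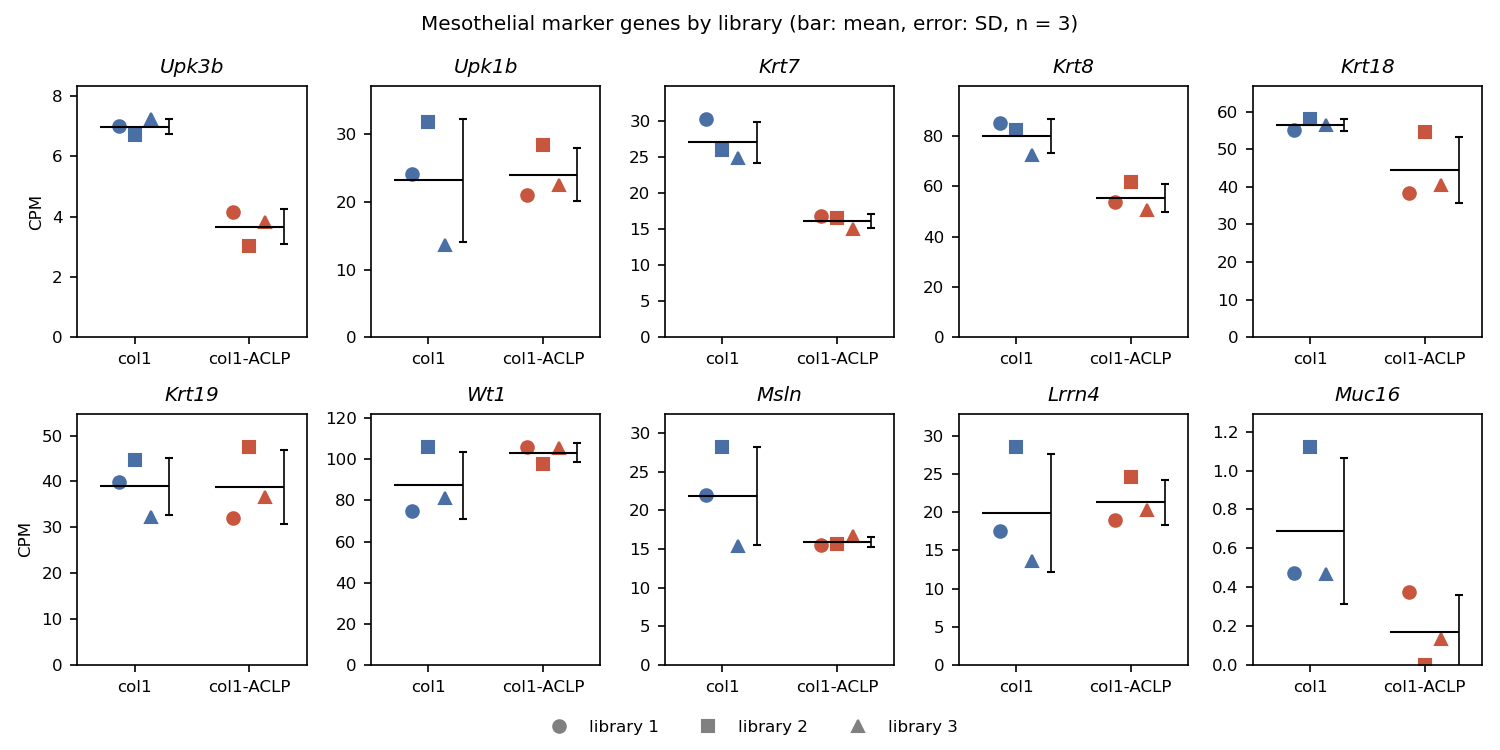
Level of each mesothelial marker in CPM (vertical axis, starting at 0) in the 3 col1 and 3 col1-ACLP libraries. Symbols stand for the library number, horizontal bars for the group mean and vertical bars for the SD. Upk3b, Krt7, Krt8, Krt18 and Muc16 lie lower in every col1-ACLP library than in any col1 library, and the other 5 genes overlap.

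Corrected for gene length, the order of the levels on col1 ran from Krt8 and Krt18 to Muc16. Krt8 stood at 121 ± 12.3 TPM (counts scaled to gene length and library, mean ± SD, n = 3) and its partner Krt18 at 116 ± 5.28, with overlapping ranges. Krt19 followed at 62.3 ± 11.3, Wt1 at 41.9 ± 8.69, Upk1b at 33.1 ± 13.6, Msln at 21.2 ± 6.69, Lrrn4 at 16 ± 6.61 and Krt7 at 11.4 ± 1.28 TPM. In that run from Krt19 to Krt7 the ranges of each pair of neighbours overlapped. Upk3b at 5.86 ± 0.0787 and Muc16 at 0.0781 ± 0.0445 TPM were each separate from the gene above. On col1-ACLP the order was the same except that Krt18 (89.9 ± 12.6 TPM) stood above Krt8 (82.7 ± 6.87) and Lrrn4 (16.7 ± 1.34) above Msln (15.2 ± 1.02), and in both of these pairs the ranges overlapped.

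Where they lie in the genome differs between the members. Positions are those of the deposited table, read as GRCm39, and all 10 genes are annotated as protein-coding. The type II keratin gene Krt8 (ENSMUSG00000049382) spans 101905133-101912917 on chromosome 15 and the type I gene Krt18 (ENSMUSG00000023043) spans 101936615-101940462, 23697 bases further on. Krt7 (ENSMUSG00000023039), also type II, lies on the same chromosome at 101308924-101328194, whereas Krt19 (ENSMUSG00000020911) is on chromosome 11 at 100031636-100039491. Upk3b (ENSMUSG00000042985) is on chromosome 5 at 136067350-136075341, Upk1b (ENSMUSG00000049436) on chromosome 16 at 38593546-38620690, Wt1 (ENSMUSG00000016458) on chromosome 2 at 104956874-105003961 and Lrrn4 (ENSMUSG00000043110) on chromosome 2 at 132710225-132722811. Msln (ENSMUSG00000063011) is on chromosome 17 at 25967587-25973352 and Muc16 (ENSMUSG00000109564) on chromosome 9 at 18406751-18585826.

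Some of these values are uncertain because the counting of reads that match several genes is not given in the sources used here. Of the 31-base words in the annotated transcripts of Krt8, 34.6% also occur in another gene, most of them in its processed pseudogene Krt8-ps, which had 45 counts against 16662 for Krt8. The share was 10.8% for Krt18, mostly with the pseudogene Gm5200, which had 0 counts, and 16.4% for Krt19, mostly with Gm73150. For Lrrn4 it was 18.0%, and 16.2% were shared with the neighbouring cardiolipin synthase gene Crls1, which had a log2 fold change of 0.36 ± 0.13 (adjusted p = 0.201). For the other 6 markers the share was 0.0 to 5.21% (3.53% for Wt1, mostly with Wt1os), and in the count table the 3 genes that overlap a member (Krt7, Krt8 or Muc16) had at most 0.36% of its counts.

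The promoters of Upk3b, which fell, and of Lrrn4, which did not pass, are shown, over 250 bases for Upk3b and 205 for Lrrn4. The RefSeq promoter table (GRCm38.p6) holds 6 of the 10 markers. The 250 bases before each start were searched on both strands for the TEAD motif GGAATG, the E-box CAGGTG bound by Snail and Zeb factors, the GC box GGGCGG, the AP-1 motif TGANTCA and the TATA box TATAAA. Both sequences were placed on GRCm39 by exact match, at chr5:136067100-136067349 on the plus strand for Upk3b and at chr2:132722828-132723032 on the minus strand for Lrrn4, the latter stopped at the first annotated exon base. Capitals mark the single TEAD match in each.
Upk3b: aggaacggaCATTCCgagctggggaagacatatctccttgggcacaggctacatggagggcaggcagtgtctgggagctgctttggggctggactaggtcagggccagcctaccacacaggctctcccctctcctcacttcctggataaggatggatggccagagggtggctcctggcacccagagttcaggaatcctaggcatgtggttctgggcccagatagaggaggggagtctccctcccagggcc
Lrrn4: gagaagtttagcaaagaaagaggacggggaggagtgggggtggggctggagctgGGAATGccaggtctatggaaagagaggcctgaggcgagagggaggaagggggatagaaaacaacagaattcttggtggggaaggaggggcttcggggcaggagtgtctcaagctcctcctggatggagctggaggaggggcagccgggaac
A TEAD match is thus present before a gene that fell and before a gene that did not pass, and 12.6% of the 32851 promoter windows hold at least 1. The window of Krt18 held 1 E-box (17.2% of all windows hold it), which lies before the gene. The window of Krt7 lies inside the gene as the count table places it, with 244 of its 250 bases in annotated exons, and that of Krt8 has 140 bases in exons, so their matches (an E-box in each and 4 GC boxes in Krt7, a motif in 32.7% of all windows) were not read as promoter matches. No AP-1 or TATA match was found in the 6 windows (6.75 and 12.4% of all windows). These matches are letters in a window, and binding was not measured.

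Keratins assemble in pairs of a type II and a type I chain, which in simple epithelia and mesothelium are chiefly Krt8 or Krt7 with Krt18 or Krt19. Krt7 was at 30.4, 25.97 and 24.9 CPM in the 3 col1 libraries and at 16.8, 16.5 and 15.04 CPM in the 3 col1-ACLP libraries. The groups were well separated, with every col1-ACLP library below the lowest col1 library. The log2 fold change was -0.75 ± 0.14 (SE), with a 95% interval of -1.04 to -0.45 (adjusted p = 0.00954 by the quasi-likelihood test of edgeR, as for all adjusted p-values here). The call held without any library except col1-ACLP 3, without which the value was -0.70 and the adjusted p = 0.0705.

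Krt8 was at 85.3, 82.4 and 72.4 CPM on col1 and at 53.9, 61.6 and 50.6 CPM on col1-ACLP. Again the groups did not overlap, but the change was smaller, -0.53 ± 0.12 (interval -0.78 to -0.29, adjusted p = 0.0233), under the fold threshold. It reached that threshold at -0.61 when col1 3 was left out (adjusted p = 0.0363), and likewise at -0.61 when col1-ACLP 2 was (adjusted p = 0.0201). Leaving out any of the other 4 libraries took the adjusted p of Krt8 to between 0.0724 and 0.163, with values of -0.52 to -0.47.

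Of the type I chains, Krt18 was at 55.0, 58.1 and 56.4 CPM on col1 and at 38.4, 54.5 and 40.4 CPM on col1-ACLP. The library col1-ACLP 2 stood just below the col1 libraries, and the fold change of -0.35 ± 0.13 did not pass (interval -0.63 to -0.07, adjusted p = 0.217). Krt19, the smallest keratin and a frequent partner of Krt7 and Krt8, was at 39.9, 44.6 and 32.3 CPM on col1, against 32.0, 47.6 and 36.6 CPM with ACLP. Here the groups overlapped, and the log2 fold change of -0.01 ± 0.15 had an interval of -0.33 to 0.32 (adjusted p = 0.993).

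The summed ratio of type II to type I chains was lower on col1-ACLP, though col1 2 and col1-ACLP 1 lay close. The summed TPM of the type II chains Krt7 and Krt8 was 0.801, 0.710 and 0.715 times that of the type I chains Krt18 and Krt19 on col1, and 0.680, 0.532 and 0.585 times on col1-ACLP. The ratio does not depend on how the libraries were scaled, and it was lower in every col1-ACLP library. The ratio of Krt7 counts to Krt19 counts went from 0.705 ± 0.106 to 0.427 ± 0.0898 (mean ± SD, n = 3 per group), also without overlap, whereas Krt8 to Krt18 in TPM was 1.04 ± 0.0983 and 0.927 ± 0.0995 and overlapped. These ratios were chosen after the values were seen and were not tested.

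The rest of the keratin family gave little signal. Of 50 other keratin genes, 11 passed the filter, and 0 of these were called by edgeR or had an unadjusted p under 0.05. They were Krt14, Krt10, Krt17, Krt80, Krt23, Krt5, Krt20, Krt76, Krt222, Krt16 and Krt36, with log2 fold changes of -0.72 to 0.91, 6 of 11 below 0. The highest was Krt14, a keratin of stratified epithelia, at 7.30 ± 2.62 CPM on col1 and 5.25 ± 0.889 on col1-ACLP.

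Uroplakins are membrane proteins first known from the bladder lining, and 2 of them mark mesothelium. Upk3b, which spans the membrane once, was at 6.996, 6.72 and 7.24 CPM on col1 and at 4.14, 3.04 and 3.83 CPM on col1-ACLP. The col1 libraries lay close together and all above the col1-ACLP libraries. The log2 fold change was -0.93 ± 0.22 (interval -1.40 to -0.46, adjusted p = 0.0396). The call was lost without any 1 of the 6 libraries, with values of -1.03 to -0.81 and adjusted p-values of 0.0582 to 0.122.

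Upk1b, a tetraspanin and thus of another protein family, was at 24.1, 31.8 and 13.7 CPM on col1, against 21.0, 28.4 and 22.6 CPM with ACLP. Its col1 libraries spread widely, with col1 2 the highest and col1 3 the lowest of all 6. The log2 fold change was 0.05 ± 0.22 (interval -0.42 to 0.52, adjusted p = 0.957), turning to -0.23 when col1 3 was left out and to -0.09 when col1-ACLP 2 was. The count of Upk3b was 0.290, 0.211 and 0.529 times that of Upk1b on col1 and 0.197, 0.107 and 0.170 times on col1-ACLP. The ratio was lower in every col1-ACLP library, though col1 2 and col1-ACLP 1 lay close, and Upk1b itself overlapped between the groups. Of 4 other uroplakin genes only Upk1a was tested, at up to 0.670 CPM, and it did not pass (0.73 ± 0.95, adjusted p = 0.800).

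**Figure D2:**
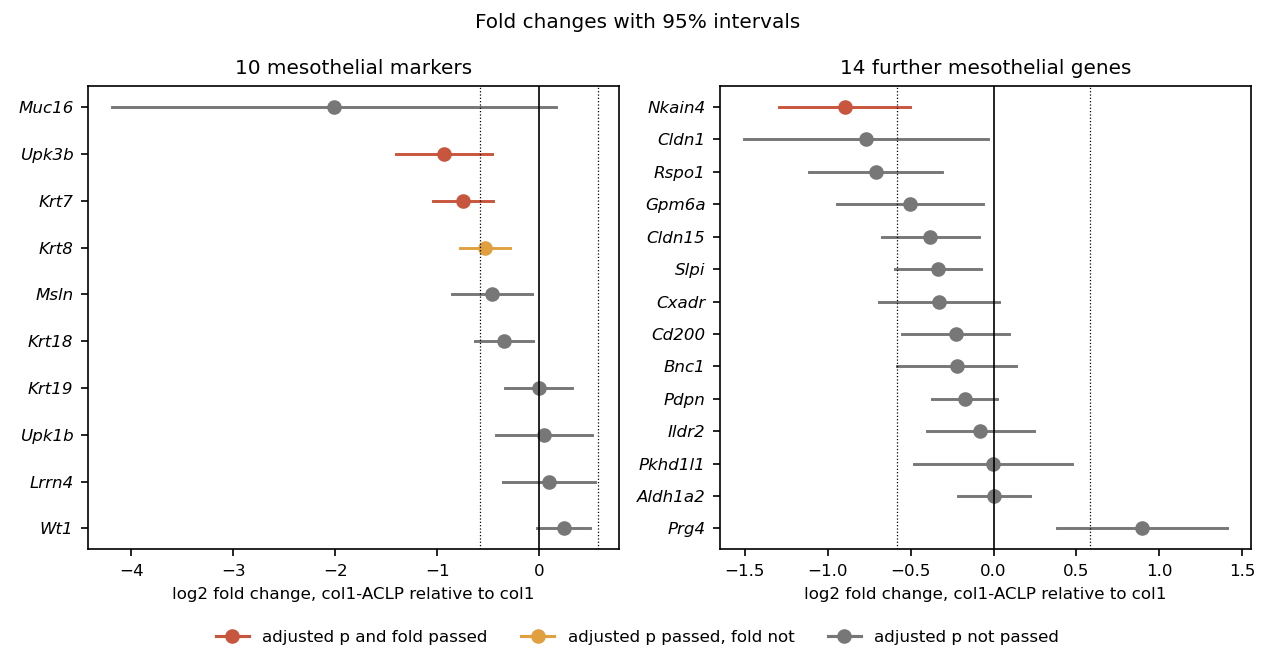
Log2 fold change of col1-ACLP relative to col1 (horizontal axis) with its 95% interval for the 10 mesothelial markers (left) and 14 further mesothelial genes (right), on different scales. Dotted lines mark the fold threshold of 0.58 in either direction. Upk3b, Krt7 and Nkain4 passed both thresholds, Krt8 passed the p threshold at -0.53, and Wt1 stands highest of the 10 markers at 0.24.

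Wt1 encodes a zinc finger transcription factor that is required for the mesothelium and for organs that form beneath it, such as kidney and gonad. It was at 74.8, 106 and 81.4 CPM on col1 and at 106, 97.8 and 105 CPM on col1-ACLP. The col1-ACLP libraries fell within a narrow range near the highest col1 library, col1 2. The log2 fold change of 0.24 ± 0.12 did not pass (interval -0.02 to 0.50, adjusted p = 0.398). Its divergent non-coding neighbour Wt1os was at 6.09 ± 2.03 and 6.14 ± 1.29 CPM (0.01 ± 0.26, adjusted p = 0.990).

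Set against Wt1 within each library, the markers divided into those whose ratios overlapped between the groups and those whose ratios did not. Wt1 itself stood at 0.24 ± 0.12 without passing, and each ratio carries that difference too. In CPM, Msln overlapped and Krt18 did not, the reverse of their ratios to Wt1. Krt7 counts were 0.406, 0.246 and 0.306 times the Wt1 counts on col1 and 0.158, 0.169 and 0.143 times on col1-ACLP. Krt8 went from 0.936 ± 0.185 to 0.539 ± 0.0796 times Wt1, Upk3b from 0.0820 ± 0.0161 to 0.0355 ± 0.00403 and Msln from 0.250 ± 0.0548 to 0.154 ± 0.00751, all 3 without overlap. The ratios of Krt18, Krt19, Upk1b and Lrrn4 to Wt1 overlapped between the groups, with Upk1b at 0.264 ± 0.0835 and 0.234 ± 0.0496. In all, 8 of 14 ratios computed had groups that did not overlap. The ratios reuse the same few genes, so they are not separate observations. The share over other pairs of genes was not computed, so this count has no background beside it. The ratios too were chosen with the values in view.

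Msln encodes mesothelin, a glycoprotein held on the surface by a lipid anchor, and Muc16 encodes the large membrane mucin that binds it. Msln was at 22.0, 28.2 and 15.4 CPM on col1 and at 15.5, 15.6 and 16.6 CPM on col1-ACLP. The lowest value of all was in col1 3, so the groups overlapped, and the 3 col1-ACLP libraries stood near that value. The log2 fold change of -0.46 ± 0.18 did not pass adjustment (interval -0.85 to -0.07, adjusted p = 0.238). Leaving out col1 2 gave -0.24 and leaving out col1 3 gave -0.67.

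Muc16 was barely detected, with 16, 54 and 20 counts on col1, against 15, 0 and 5 with ACLP. The 0 counts in col1-ACLP 2 allow up to 0.068 CPM, by counting error alone. The fitted log2 fold change of -2.01 ± 1.03 had an interval of -4.19 to 0.17 (adjusted p = 0.386). It ranged from -3.34 to -1.42 when single libraries were left out. At this depth a change of Muc16 was not detectable.

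Lrrn4 encodes a membrane protein with leucine-rich repeats that is known in mice from mesothelium and from neurons. It was at 17.5, 28.6 and 13.7 CPM on col1 and at 19.0, 24.7 and 20.4 CPM on col1-ACLP. As for Upk1b, the highest and the lowest library were col1 2 and col1 3. The log2 fold change was 0.10 ± 0.21 (interval -0.35 to 0.55, adjusted p = 0.895), and -0.12 without col1 3 and -0.02 without col1-ACLP 2. Its count stood at 0.875 ± 0.139 times that of Upk1b on col1 and 0.893 ± 0.0219 times on col1-ACLP.

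Leaving aside Muc16, the groups did not overlap in 4 of 9 markers, all lower on col1-ACLP (Upk3b, Krt7, Krt8 and Krt18). Of all tested genes 20.4% did not overlap, 10.2% lower and 10.2% higher. The intervals of 5 markers lay below 0, those of Upk3b, Krt7, Krt8, Krt18 and Msln.

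The markers also differed in how they varied between libraries of the same group. Upk1b, Lrrn4 and Msln deviated together on col1, by 0.54, 0.59 and 0.41 above the group mean of log2 CPM in col1 2 and by -0.68, -0.47 and -0.46 in col1 3. On col1-ACLP, Krt18 and Krt19 deviated by 0.31 and 0.32 in col1-ACLP 2, where Upk3b deviated by -0.26. Over the 6 deviations the correlation was 0.94 between Upk1b and Lrrn4, 0.92 between Upk1b and Msln, and -0.98 between Upk3b and Krt18. They are the extremes of all pairs of markers, picked after the values were seen, and all other pairs lay between them. These are descriptions over 6 libraries that share their group means and scaling. The library col1 2 was also the deepest, and col1-ACLP 2 had the highest mitochondrial share. Their part in these deviations was not tested.

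**Figure D3:**
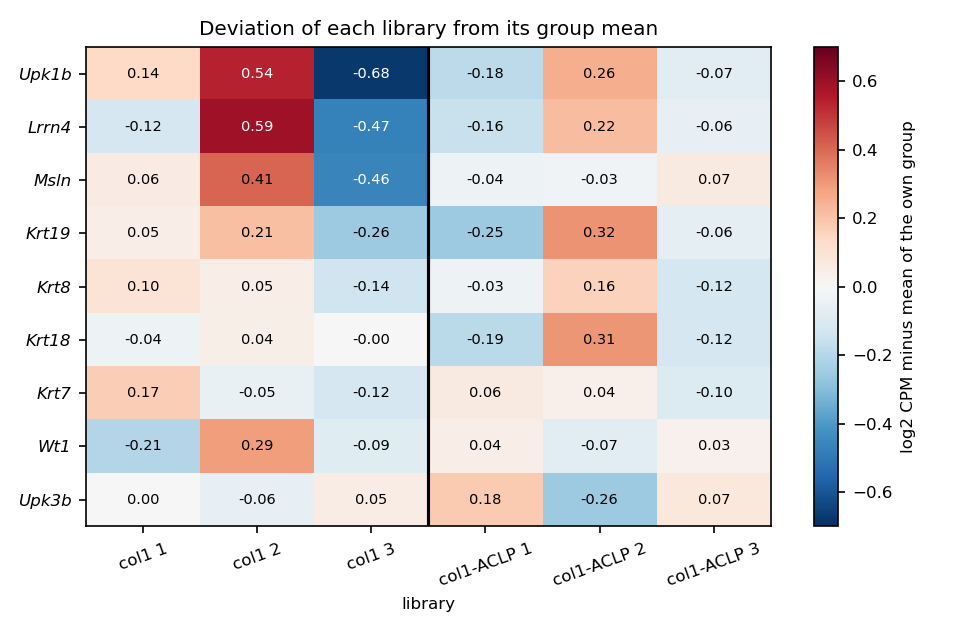
Deviation of log2 CPM from the mean of the own group for 9 mesothelial markers (rows) in the 6 libraries (columns), with red above and blue below the mean. Muc16 is left out for its low counts. Upk1b, Lrrn4 and Msln share high values in col1 2 (0.54, 0.59 and 0.41) and low values in col1 3 (-0.68, -0.47 and -0.46).

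Genes whose profile over the 6 libraries was most like the mean standardised profile of the 10 markers were sought among 12707 tested genes with a mean log2 CPM above 1. The closest were Smim8, Crnkl1, Dynlt1a, Trim13, ENSMUSG00000120024, Gzf1, Tti2, Map3k5, Nfasc and Rsl1, with Pearson correlations of 0.96 to 0.98. None of these 10 was called by edgeR, and their log2 fold changes were -0.34 to -0.07. No further mesothelial gene was among them. They are the extremes of 12707 genes over 6 libraries, where such correlations can arise by chance, and they were not tested. The profile weighs each marker equally, Muc16 included, although Krt7 and Upk3b ran opposite to Wt1 (correlations of -0.71 and -0.595). The profile itself stood highest in col1 2, at 1.04 on the standardised scale, and lowest in col1-ACLP 1, at -0.49.

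A wider list of 15 genes known from mesothelium held 14 that were tested, and 1 of these, Nkain4, was lowered and 0 were raised, where 0.722% of all tested genes were lowered. Their median log2 fold change was -0.28, and 12 of 14 were below 0, against 48.9% of all genes. Of the 14, 7 had an unadjusted p under 0.05 (14.9% of all genes). The groups did not overlap in 6 that were lower and 1 that was higher (10.2% of all genes each). The summed level, which includes the abundant Pdpn and Slpi, was 2108 to 2237 CPM on col1 and 1692 to 1996 on col1-ACLP. Nkain4, which encodes a membrane protein that interacts with the sodium pump, was at 13.9, 11.2 and 11.5 CPM on col1 and at 6.72, 7.32 and 5.59 CPM on col1-ACLP, again without overlap (-0.90 ± 0.19, adjusted p = 0.0171). The secreted Wnt amplifier Rspo1 was at 13.3 ± 1.63 and 8.13 ± 1.63 CPM (-0.71 ± 0.19, adjusted p = 0.0636). In the opposite direction the joint lubricant gene Prg4 stood at 8.28 ± 2.56 and 15.4 ± 4.96 CPM (0.89 ± 0.24, adjusted p = 0.0701). The 3 most abundant genes of the list did not pass. Podoplanin Pdpn was at 933 ± 39.2 and 828 ± 48.9 CPM (-0.17 ± 0.09), the protease inhibitor Slpi at 884 ± 13.4 and 702 ± 148 (-0.33 ± 0.12) and the retinoic acid enzyme Aldh1a2 at 94.5 ± 7.07 and 94.8 ± 0.608 (0.00 ± 0.10). Pdpn and Slpi are also made by fibroblasts, other epithelia or immune cells. Calretinin Calb2, a mesothelial marker in humans, had 2 counts in all.

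Among genes of other epithelia Cldn4 fell, and the groups did not overlap in their summed level. The summed level of 14 epithelial identity genes was 77.9 to 85.0 CPM on col1 and 48.0 to 70.2 on col1-ACLP. Of the 12 that were tested 1 was lowered (0.722% of all genes), 0 raised and 11 were below 0 (48.9% of all genes), with a median of -0.47. The tight junction gene Cldn4 was at 30.0, 30.6 and 30.8 CPM on col1, against 18.4, 24.6 and 14.4 CPM with ACLP (-0.67 ± 0.17, adjusted p = 0.0484). The epithelial adhesion genes Epcam (10.6 ± 0.240 and 7.72 ± 0.988 CPM, adjusted p = 0.231) and Cdh1 (14.3 ± 2.03 and 9.27 ± 3.18 CPM, adjusted p = 0.166) did not pass. Such epithelia express Krt7, Krt8, Krt18 and Krt19 too, and their part in the keratin result was not tested.

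Gonadal fat lies against the epididymis or the ovary. Of 11 genes of gonads and genital tract, 6 were tested and 0 were called by edgeR (1.38% of all genes). Of the 6, 1 had an unadjusted p under 0.05 (14.9% of all genes). All 6 were below 0 (48.9% of all genes), with a median of -0.38. The summed level of the list was 9.28 to 13.6 CPM on col1 and 7.37 to 9.40 on col1-ACLP. Among them the epididymal lipocalin Lcn5 was at 2.30 ± 0.202 and 1.22 ± 0.163 CPM (-0.91 ± 0.39, adjusted p = 0.272), and the follicle hormone receptor gene Fshr had 0 counts in every library. Genes of the desmosome, to which keratins attach, numbered 12 tested with 0 called by edgeR and 1 at an unadjusted p under 0.05 (14.9% of all genes). Of these 12 genes 8 were below 0 (48.9% of all genes), with a median of -0.32. The 12 tight junction and polarity genes likewise had 0 called and 2 at an unadjusted p under 0.05, against the same share. Their median was -0.12, with 7 of 12 below 0.

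Factors and products of mesenchymal transition were measured as well, since mesothelial cells can undergo it. Of 9 such genes 0 were called by edgeR and 4 had an unadjusted p under 0.05 (14.9% of all genes). Their median was 0.20, and 2 were below 0, against 48.9% of all genes. The repressor Zeb2 was at 93.6, 141 and 148 CPM on col1, against 181, 155 and 163 CPM with ACLP (0.38 ± 0.14, adjusted p = 0.200), and N-cadherin Cdh2 was at 26.2 ± 2.74 and 34.5 ± 3.77 CPM (0.40 ± 0.13, adjusted p = 0.159). The groups did not overlap in 4 of the 9, Zeb1, Zeb2, Cdh2 and Vim, all higher on col1-ACLP, as were 10.2% of all tested genes. Fibroblasts express all of these genes.

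Of 8 transcription factors of the coelomic lining and its derivatives, 1 was lowered (0.722% of all genes) and 0 were raised. The list had a median of 0.03, with 3 of 8 below 0 (48.9% of all genes). The gene lowered was Osr1, from 54.8, 53.1 and 41.2 CPM to 34.6, 28.9 and 33.4 CPM (-0.62 ± 0.13, adjusted p = 0.0215). Gata4, Gata6, Tbx18, Tcf21, Nr2f2, Meis1 and Lhx9 did not pass. Of 9 known targets of Wt1, 8 were tested and 0 called by edgeR, with 1 at an unadjusted p under 0.05 (14.9% of all genes). The targets had a median of 0.03, with 3 of 8 below 0. Of 6 membrane mucin and mesothelin-like genes other than Muc16 and Msln, only Muc1 and Muc13 were tested and 0 were called or had an unadjusted p under 0.05. Muc1 was at 4.94 ± 0.451 and 5.03 ± 1.14 CPM.

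**Figure D4:**
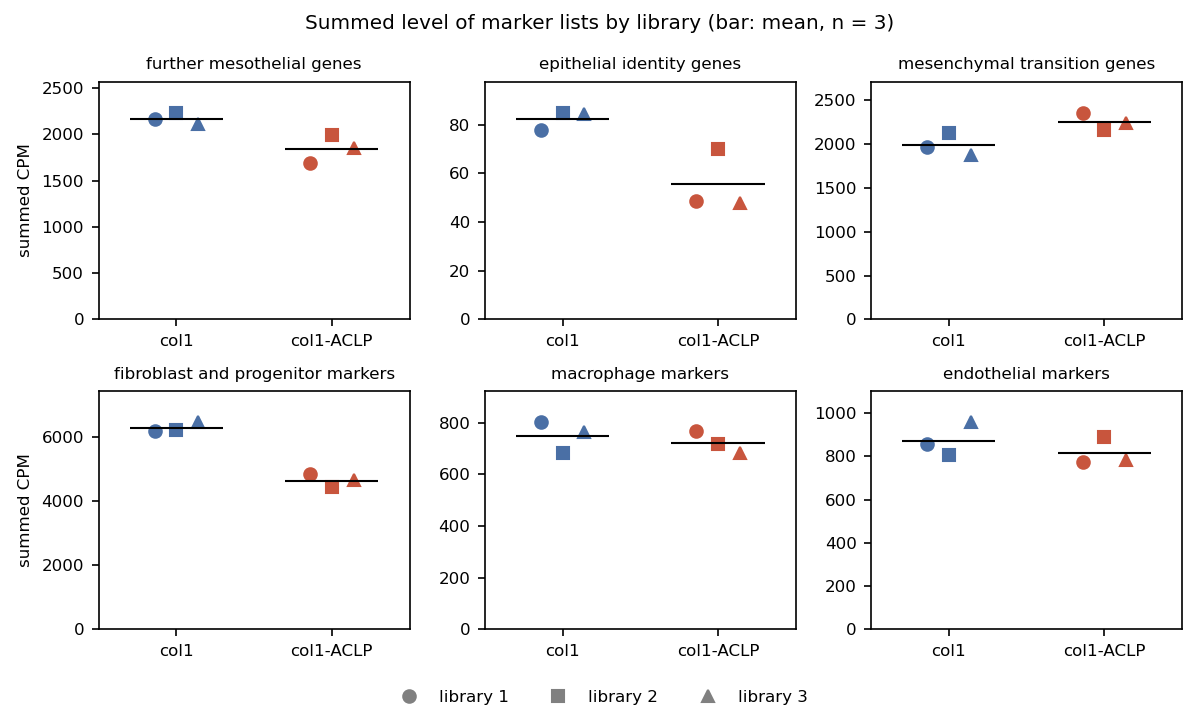
Summed CPM (vertical axis, starting at 0) of 6 marker lists in the 3 col1 and 3 col1-ACLP libraries, with the group mean as a bar. Epithelial identity genes lie at 77.9 to 85.0 CPM on col1 and 48.0 to 70.2 on col1-ACLP, and macrophage and endothelial markers overlap between the groups.

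Markers of the remaining cell types showed where other changes lay. The 11 fibroblast and progenitor markers had 3 lowered (0.722% of all genes) and 0 raised and a median of -0.27, with Ly6a at 2161 ± 149 and 1345 ± 84.0 CPM, Cd34 at 240 ± 2.12 and 153 ± 14.7 and Pi16 at 14.8 ± 2.15 and 6.60 ± 0.807. Dcn passed the p threshold only, at 2202 ± 287.5 and 1481 ± 60.3 CPM (-0.57 ± 0.10, adjusted p = 0.00668). Of the 11, 7 had an unadjusted p under 0.05 (14.9% of all genes). The groups did not overlap in 6 that were lower and 1 that was higher (10.2% of all genes each). Pi16 and Cd34 are known from progenitors near the mesothelium and around vessels, and Ly6a from stromal progenitors at large. Summed macrophage markers were 682 to 801 CPM on col1 and 683 to 766 on col1-ACLP, endothelial markers 804 to 957 and 773 to 890, and mural cell markers 191 to 208 and 204 to 289. Adipocyte markers summed to 23.7 to 26.8 and 18.2 to 32.4 CPM and lymphoid markers to 0.385 to 1.52 and 0.451 to 1.18. In these 5 lists 0 genes were called by edgeR, with 2 macrophage, 1 endothelial, 2 mural, 3 adipocyte and 0 lymphoid genes at an unadjusted p under 0.05, of 12, 8, 6, 6 and 2 tested, against 14.9% of all genes.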

How the data were processed

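For 6 polyA libraries the authors deposited whole-number read counts by gene, without normalization, in a single table that also lists gene lengths. HISAT2 was the aligner. As genome build, mm10 stands in the submitters' processing notes and GRCm39 in the study's methods. Of 56748 identifiers 56017 were in GENCODE vM39 (GRCm39), 92.01% of these with a start within 1000 bases, so positions are read as GRCm39. Which program counted the reads, and whether by strand, is not given in the sources used here.

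Columns were assigned by the names that the labels quote, and 0 other per-sample columns were present. Counts were filtered (filterByExpr, minimum count 10, total 15), scaled by TMM and tested between groups with edgeR 4.0.16 (quasi-likelihood, two-sided), Benjamini-Hochberg adjusted over 17717 genes. DESeq2 1.42.0 and limma-voom (limma 3.58.1) were alternatives, with RLE factors, library totals, 2 other filters, a replicate block and each library left out. Log2 CPM used a prior count of 2, TPM the deposited gene lengths. The labels do not say whether replicates were separate cultures or animals, and the p-values reflect only how far these libraries spread, which may be technical. Replicates differed by more than sampling noise (chi-square per degree of freedom 25.0 to 72.2).

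The 10 markers and all lists were chosen with earlier results of these data known. Outside the 10 markers, the genes named are those called, the 3 most abundant further mesothelial genes, tested keratins and uroplakins, and the 10 closest profiles. Others named (Rspo1, Prg4, Calb2, Epcam, Cdh1, Lcn5, Fshr, Zeb1, Zeb2, Cdh2, Vim, Muc1, Muc13, Crls1, Wt1os, Dcn and the uncalled coelomic factors) were chosen after their values were seen.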

Additional observations from a re-analysis of the deposited data

How the results depend on the processing

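Leaving out 1 library moved the number of markers called from 2 to between 0 and 2, and the number of all genes called from 245 to between 148 and 289 (157 when col1 1 was left out, 163 for col1 3, 151 for col1-ACLP 1 and 148 for col1-ACLP 3). No marker was called without col1-ACLP 3 by edgeR, with Krt7 at an adjusted p of 0.0705. Krt7 was called under all 7 alternatives that kept every library and Upk3b under 6. With the replicate block 1 marker was called (Krt7), with Upk3b at -0.94 and an adjusted p = 0.0767, and 194 genes in all. The numbers are not taken as pairs, since deviations of same-numbered libraries correlated at -0.03 to -0.01 and 0 of 6 libraries correlated best with their own number. Without a filter on low counts 389 of 31605 genes were called, 2 of them markers. DESeq2 and limma-voom each called Krt7 and Upk3b. With 10 counts required in every library Muc16 was not tested.

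Values near 0 changed sign when a library was left out. Krt19 ranged from -0.18 to 0.11, Upk1b from -0.23 to 0.34 and Lrrn4 from -0.12 to 0.45. Krt19 came to 0.01 when col1 1 was left out, 0.09 for col1 2, 0.11 for col1-ACLP 1 and 0.03 for col1-ACLP 3. Upk1b came to -0.23 for col1 3 and -0.09 for col1-ACLP 2, and Lrrn4 to -0.12 and -0.02. The cause was not tested. Muc16 was counted 0 to 54 times a library.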
